A study of Mus musculus with 4 samples.

Results

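The TRAV7 family is a group of closely related V genes of the T cell receptor alpha chain, and its chains were described here in tumours of p53 KO and of WT MC38 cells. Members were chosen by name: all alpha chain contigs whose V gene is called TRAV7-, TRAV7D- or TRAV7N- with a number. A contig is 1 receptor chain assembled from the reads of 1 cell. The rule found 148 of 729 alpha contigs, in 144 of 659 cells with an alpha chain, and 10 of 82 TRAV gene names. The p53 KO library held 94 of 336 of these contigs and the WT library 54 of 393. The family was picked because it was carried by the largest p53 KO clones, so its share of cells and its clone sizes in p53 KO are given as a description and support nothing.

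MC38 is a mouse colon carcinoma line that grows in C57BL/6J mice. The p53 KO tumours came from MC38 cells whose p53 was knocked out by CRISPR-Cas9, and they were set against tumours of MC38 cells with intact p53 (WT). Mice of both groups received anti-PD-1, an antibody against an inhibitory receptor of T cells, and the receptor chains came from whole tumours run on the 10x 5′ platform with receptor (TCR) libraries. Only the tumour cells carry the knockout, so the T cells of both groups are those of C57BL/6J hosts. There was 1 TCR library per genotype, the labels do not state how many mice were behind each, and the knockout and the T cell type cannot be checked in receptor contigs. Gene expression libraries of the same study were left out.

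An alpha chain is made when 1 of many V genes is joined to 1 of many J genes in a developing T cell. The loops CDR1 and CDR2 are written in the V gene and mostly touch the presenting molecule, while CDR3 spans the joint of V and J and mostly touches the bound peptide. In the C57BL/6 mouse the V alpha cluster carries extra copies of a long stretch, and the letters D and N in a name mark genes in those copies. T cells that descend from 1 cell share both chains and form a clonotype. A paired cell has an alpha and a beta chain. Each cell and clonotype was given its alpha chain with most unique molecular identifiers (UMIs, which count RNA molecules).

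The libraries held 259 paired cells in 168 clonotypes (p53 KO) and 277 paired cells in 211 clonotypes (WT), from 4138 and 4280 UMIs over all chains. Family contigs had a median of 4 UMIs in p53 KO and 5 in WT, beside 3 and 5 for other alpha contigs. Contigs under 3 UMIs made up 24.5% of family contigs in p53 KO and 25.9% in WT, beside 31.0% and 17.4% of other alpha contigs. The libraries shared 0 cell barcodes.

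The 10 family genes lie on chromosome 14, and RefSeq (GRCm38.p6, the assembly of mm10) annotates 14 genes of these names as V segments between 52654817 and 53717291, a span of 1062 kb. All 10 names matched. TRAV7-2, TRAV7D-5, TRAV7D-6 and TRAV7N-5 were on no contig. The loops that the contigs carried are shown in amino acids, CDR1 and then CDR2, in order along the chromosome, because they show which members share loops.
TRAV7-1: DRNSQY and IFSNGD
TRAV7D-2: DRNVDY and IFSNGE
TRAV7D-3: DSASQY and IFSNGE
TRAV7D-4: DRNFQY and IFSDGD
TRAV7N-4: DRNFQY and IFSDGD
TRAV7N-6: NSASQS and IFSNGN
TRAV7-3: DSASQY and IFSNGE
TRAV7-4: DRNFQY and IFSDGD
TRAV7-5: DGTSNN and IFSDGE
TRAV7-6: DSASQS and IFSNGN
Each gene had the same loops on all its contigs. All loops were 6 residues long, and the 10 genes held 7 different CDR1 and 5 different CDR2. TRAV7-4 (53461209 to 53461738), TRAV7D-4 (52769863 to 52770392) and TRAV7N-4 (53091346 to 53091875) shared both loops, as did TRAV7-3 (53443314 to 53443839) and TRAV7D-3 (52744314 to 52744838). These sets of copies differed at 1 to 3 of the 264 bases that precede CDR3 and at 0 of 88 residues. Which copy a contig is named for thus rests on 1 to 3 bases, and counts within each set are uncertain to that extent. Over all 45 pairs of family genes, between 1 and 47 bases differed (82.2% to 99.6% identity). No other TRAV contig carried a family CDR1 or CDR2 (0 and 0 of 581 contigs from 72 genes).

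Counted once per clonotype, the family took nearly the same place in both libraries. It was in 20 of 168 p53 KO clonotypes (11.9%, exact 95% interval 7.43 to 17.8) and in 24 of 211 WT clonotypes (11.4%, 7.43 to 16.5). By this count it ranked 3 of 19 families in p53 KO, level with TRAV3, and 3 of 16 in WT. Without possible multiplets (barcodes with 2 or more beta or 3 or more alpha contigs) the order turned, to 10.6% in p53 KO and 11.8% in WT. All intervals are exact binomial (Clopper-Pearson), cover counting error only and treat cells or clonotypes as independent. A single library per genotype leaves every difference without replicates, so none was tested.

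Counted by cells, the libraries lay far apart. In p53 KO, 76 of 259 paired cells had a family chain (29.3%, 23.9 to 35.3). In WT, 35 of 277 did (12.6%, 8.96 to 17.1). Of the 76 p53 KO cells, 54 belonged to 3 clonotypes of 10 or more cells. Without such clonotypes 22 of 205 p53 KO cells had one (10.7%, 6.85 to 15.8), against the same 35 WT cells, since no WT clonotype was that large. With at least 3 UMIs per contig the order turned, to 19.1% in p53 KO and 13.9% in WT, because clones of 16 and 10 cells then held 7 each and counted as small. In the count without that minimum the family ranked 4 by cells in p53 KO, level with TRAV9, and 2 in WT. The cells of a clone are not independent, so the interval around 29.3% is too narrow as a statement about clones. The 2 families nearest in clonotype share were TRAV14 and TRAV3. TRAV14 was in 28 p53 KO cells (10.8%, 7.30 to 15.2) and 40 WT cells (14.4%, 10.5 to 19.1), and TRAV3 in 26 p53 KO cells (10.0%, 6.66 to 14.4) and 28 WT cells (10.1%, 6.82 to 14.3). Their largest clonotypes held 3 and 5 cells in p53 KO, and 5 and 6 in WT.

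**Figure D1:**
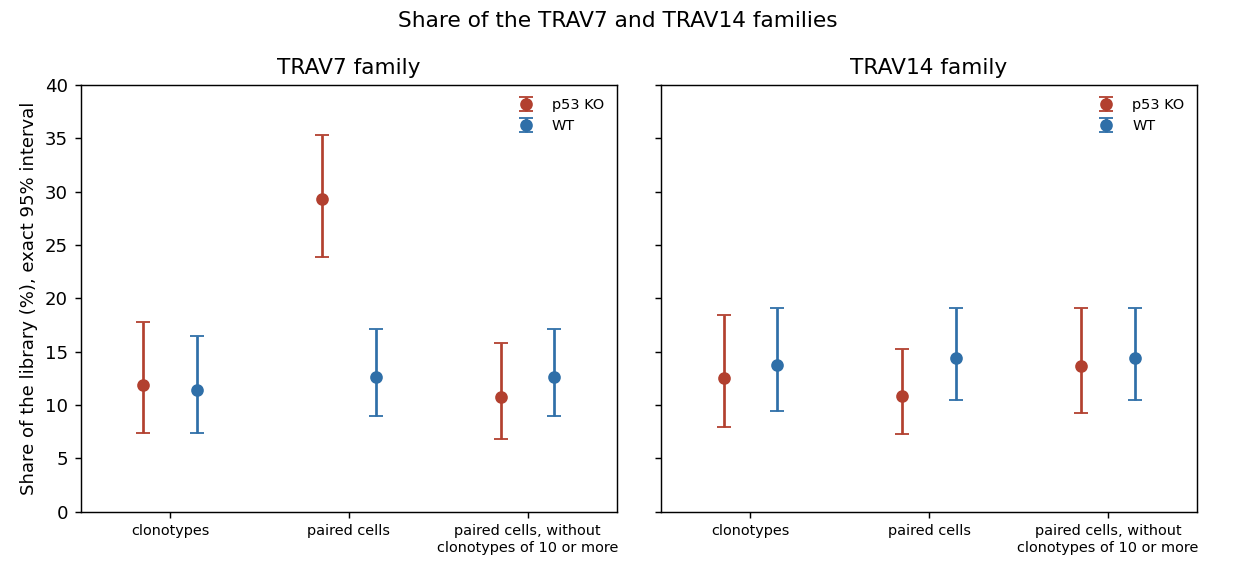
Share of each library (%, exact 95% interval) held by the TRAV7 family (left) and the TRAV14 family (right), by clonotypes, by paired cells and by paired cells without clonotypes of 10 or more cells, with p53 KO in red and WT in blue. The TRAV7 shares stand apart by paired cells, at 29.3% and 12.6%, and overlap by the other 2 counts.

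Clone sizes showed the same split. In p53 KO the 20 family clonotypes averaged 3.8 cells, with a median of 1 and a largest of 28, beside 1.24 cells for 148 clonotypes of other TRAV genes, where the largest held 6. In WT the 24 family clonotypes averaged 1.42 cells, with a median of 1 and a largest of 5, beside 1.30 for 187 others, where the largest held 6. Without the 3 large clonotypes the p53 KO mean was 1.29 cells over 17 clonotypes. Most family clonotypes were small: 15 of the 20 p53 KO clonotypes and 20 of the 24 WT clonotypes were single cells. Clonotypes of 2 or more cells were 5 of 20 in p53 KO (25.0%, 8.66 to 49.1), beside 20 of 148 for other TRAV genes (13.5%, 8.45 to 20.1). Without the 3 large clonotypes they were 2 of 17 in the p53 KO family (11.8%, 1.46 to 36.4). In WT they were 4 of 24 (16.7%, 4.74 to 37.4), beside 33 of 187 (17.6%, 12.5 to 23.9). All 3 clonotypes of 10 or more cells in these libraries were of this family, a fact that entered its choice.

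**Figure D2:**
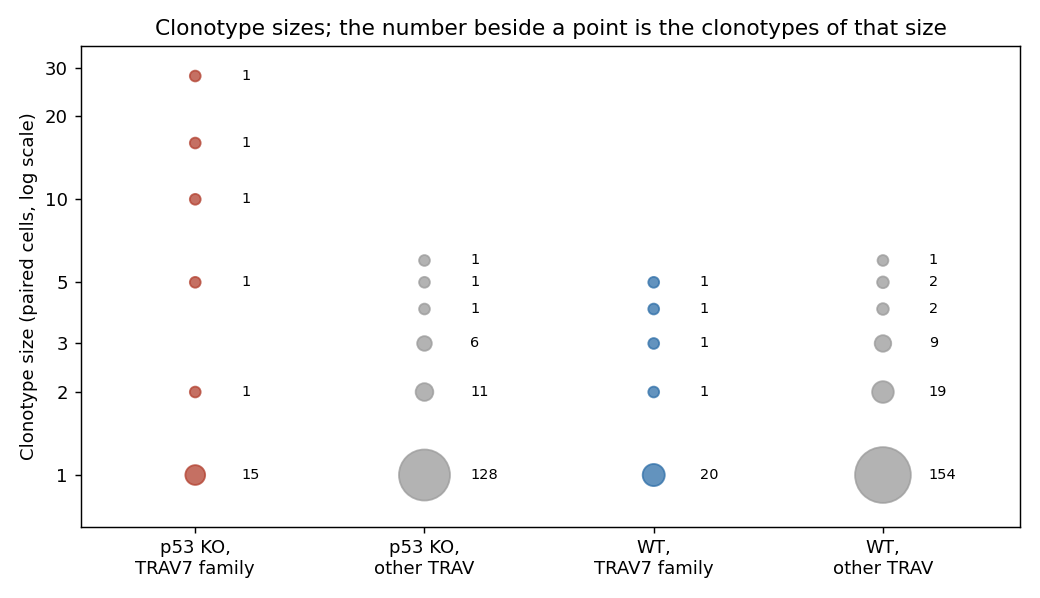
Size of each clonotype in paired cells (log scale) for TRAV7 family and other TRAV clonotypes of p53 KO and WT; the area of a point and the number beside it give how many clonotypes have that size. The points at 10, 16 and 28 cells are all p53 KO clonotypes of the TRAV7 family, and 15 of its 20 clonotypes sit at 1 cell.

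The genes differed in which library they led. TRAV7D-2 (52683964 to 52684472) was the most used member by clonotypes in both, with 6 in p53 KO and 9 in WT. By cells it had 6 in p53 KO, none in a large clone, and 15 in WT, where it was the TRAV gene with most cells of 68. TRAV7D-3 had 4 clonotypes and 31 cells in p53 KO, against 1 clonotype and 1 cell in WT. Outside the clone of 28, only 3 of those p53 KO cells remained. TRAV7-6 (53716760 to 53717291) had 2 clonotypes and 18 cells in p53 KO, 2 of them outside its large clone, against 3 clonotypes and 4 cells in WT. TRAV7-4 had 3 clonotypes and 12 cells in p53 KO, again 2 outside the large clone, against 1 clonotype and 2 cells in WT. One of those WT cells belonged to a clonotype named for another TRAV gene. With each cell counted under the gene of its clonotype, of 60 TRAV genes in p53 KO, TRAV7D-3 and TRAV7-6 had the most cells, and TRAV7-4 came next with 12, level with TRAV3-3 and TRAV3D-3.

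The remaining genes were found in a few cells each. TRAV7-3 had 1 clonotype of 5 cells in p53 KO and 4 single cells in WT. TRAV7-1 (52654817 to 52655329) had 3 single cells in p53 KO and 0 paired cells as top chain in WT, which allows a share of up to 1.08% (3 counts). Of its 2 WT contigs, 1 was in a cell without a beta chain, and 1 was second to a TRAV9-2 chain in a paired cell. TRAV7-5 (53530786 to 53531313) had 0 paired cells as top chain in p53 KO (up to 1.16%) and 3 in WT. TRAV7D-4 and TRAV7N-4 had no p53 KO contig (0 paired cells, up to 1.16% each), against 4 cells and 1 cell in WT. TRAV7N-6 (53324676 to 53325208) had 1 cell in each. Pooled with its copies, the TRAV7-4 set stood at 3 clonotypes in p53 KO and 3 in WT, and the TRAV7-3 set at 5 and 5. By cells these sets had 12 and 36 in p53 KO, against 7 and 5 in WT, and without large clonotypes 2 and 8 against 7 and 5. Of the 10 genes, 4 had a higher share of clonotypes in p53 KO than in WT, beside 48.1% of all 79 TRAV genes found in clonotypes. By cells it was 6 of 10, beside 44.3% of the 79, a count on which the choice of the family bears directly.

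**Figure D3:**
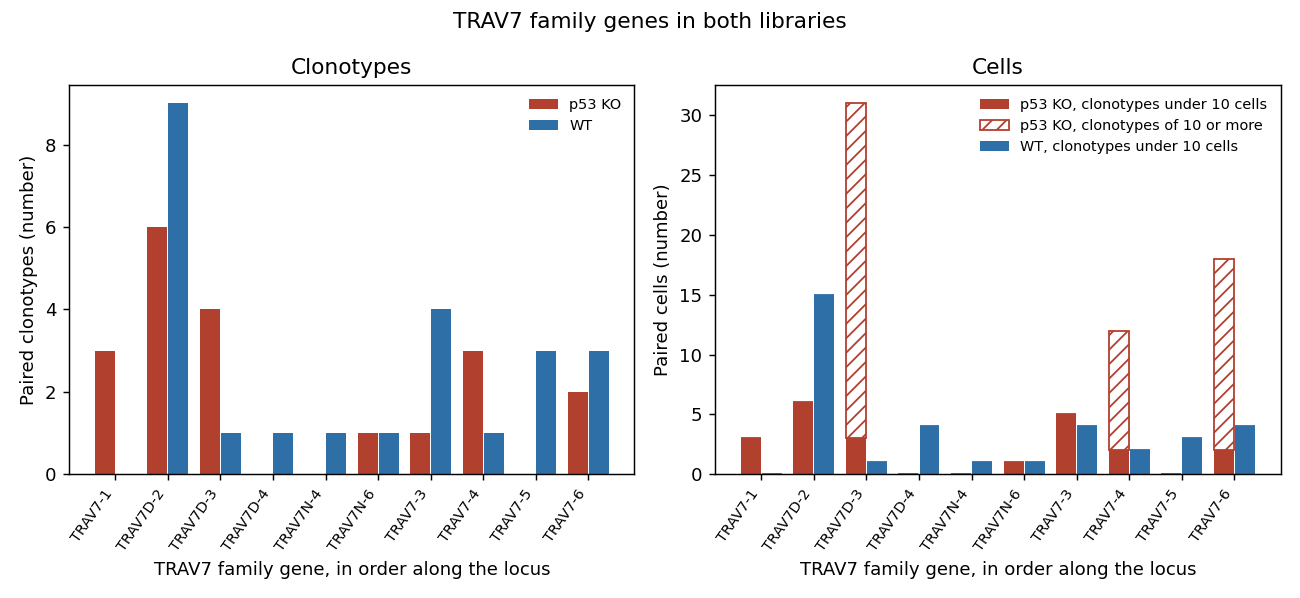
Paired clonotypes (left) and paired cells (right) of each TRAV7 family gene, in order along chromosome 14, with p53 KO in red and WT in blue; hatched bars are cells of p53 KO clonotypes of 10 or more. TRAV7D-2 leads both libraries by clonotypes (6 and 9), and hatched parts make up most of the TRAV7D-3, TRAV7-4 and TRAV7-6 cells.

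The CDR3 alpha of the larger clonotypes is shown in bases, to let the joints be compared. Lower case on the left is the longest run shared with a chain of the same V gene and another J gene, and lower case on the right the longest run shared with a chain of the same J gene and another V gene. Capitals are the bases in neither run. The runs come from these libraries, not from the genome, and can reach into the joint by chance. A run also ends at the first base that differs, so capitals can include bases that match the V or J gene. The number of capitals is thus not a count of bases added at the joint. The WT clone of TRAV7D-4 is left out, because no chain joined that gene to another J gene.
p53 KO, TRAV7D-3 and TRAJ37, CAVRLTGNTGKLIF: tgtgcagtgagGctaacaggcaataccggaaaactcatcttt
p53 KO, TRAV7-6 and TRAJ43, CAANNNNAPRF: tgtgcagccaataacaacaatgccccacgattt
p53 KO, TRAV7-4 and TRAJ33, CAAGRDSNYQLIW: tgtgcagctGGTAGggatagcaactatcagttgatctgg
p53 KO, TRAV7-4 and TRAJ33, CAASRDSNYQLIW: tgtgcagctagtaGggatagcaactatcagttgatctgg
p53 KO, TRAV7-3 and TRAJ26, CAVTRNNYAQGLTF: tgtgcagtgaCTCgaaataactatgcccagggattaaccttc
WT, TRAV7D-2 and TRAJ18, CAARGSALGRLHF: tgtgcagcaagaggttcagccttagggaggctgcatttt
WT, TRAV7D-2 and TRAJ21, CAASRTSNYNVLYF: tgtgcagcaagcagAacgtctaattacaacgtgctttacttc
The p53 KO clone of 28 cells (10.8% of paired cells, 7.30 to 15.2) joined TRAV7D-3 to TRAJ37 with 1 base in capitals, and its beta chain used TRBV1 and TRBJ2-2. UMIs of its alpha chain ran from 1 to 22 per cell with a median of 7, and 4 of the 28 cells were under 3. The clone of 16 cells (6.18%, 3.57 to 9.84) joined TRAV7-6 to TRAJ43 with 0 such bases, and paired with TRBV19 and TRBJ2-1. Its alpha chain was thinly covered, with a median of 1.5 UMIs and 9 of 16 cells under 3, while its beta chain had a median of 8. That beta chain was in 31 cells: beside the 16, another 14 had no alpha chain, and 1 had a TRAV10N chain (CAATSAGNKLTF). The clone of 10 cells (3.86%, 1.87 to 6.99) joined TRAV7-4 to TRAJ33 with 5 such bases and paired with TRBV5 and TRBJ2-1. With 3 or more UMIs required of each contig, the 3 clones kept 23, 7 and 7 paired cells.

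The clone of 10 cells had a close neighbour in the same library. A single cell carried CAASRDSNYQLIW in place of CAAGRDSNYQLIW, with the same V and J genes and the same beta chain in bases. The alpha sequences differed at 1 base, and that cell's chain had 13 UMIs, against a median of 4.5 in the clone. The deposited identifiers count it as a clonotype of its own, and in all, 11 cells with this beta chain carried 1 of the 2 alpha sequences.

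The next p53 KO clone held 5 cells and joined TRAV7-3 to TRAJ26 with TRBV26. In 1 of the 5 cells a TRAV12-2 chain (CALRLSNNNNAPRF) had more UMIs, 6 against 4 for the family chain. The largest WT clones were smaller. TRAV7D-2 with TRAJ18 (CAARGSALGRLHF) was in 5 cells with a median of 12 UMIs. The top beta chain used TRBV17 in 4 of them and TRBV19 in 1, and 2 of the 5 were possible multiplets. TRAV7D-4 with TRAJ30 was in 4 paired cells with TRBV23, and TRAV7D-2 with TRAJ21 (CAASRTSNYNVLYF) in 3 cells with TRBV3. No V and J pair recurred among these 7 clones.

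Some members recurred as amino acid sequences. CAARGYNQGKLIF, made of TRAV7D-2 and TRAJ23, was the only family CDR3 alpha found on family chains of both libraries, in 2 p53 KO and 2 WT cells, with a different beta chain in each cell. The same 13 residues also stood on TRAV14 genes, in 2 p53 KO and 5 WT cells, the 5 being 1 clonotype. The 11 cells held 6 different nucleotide versions, shown here with capitals at the 3 positions where any of them differ.
p53 KO, TRAV7D-2: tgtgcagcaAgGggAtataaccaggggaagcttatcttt
WT, TRAV7D-2: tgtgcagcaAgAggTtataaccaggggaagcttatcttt
WT, TRAV7D-2: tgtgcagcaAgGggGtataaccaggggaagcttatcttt
p53 KO, TRAV14-2: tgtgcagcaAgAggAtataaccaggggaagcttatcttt
p53 KO, TRAV14D-2: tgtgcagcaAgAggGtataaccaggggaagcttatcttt
WT, TRAV14N-3: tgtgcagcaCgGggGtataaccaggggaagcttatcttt
The 4 family cells had 1 to 3 UMIs of this chain each, so all were thinly covered. The p53 KO cells shared 1 version, and the WT cells had 1 each. TRAV7D-2 and TRAJ7 gave CAAKDYSNNRLTL in 1 p53 KO cell, and TRAV14-1 gave it with the same bases in 3 others. In WT, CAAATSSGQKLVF was written by the same bases on TRAV7D-2 in 2 cells and on TRAV10N in 3. Of the distinct family CDR3 alpha, 3 of 24 in p53 KO (12.5%) and 3 of 32 in WT (9.38%) were also found on other TRAV genes of either library. No such share was counted for other TRAV families, so this sharing is not shown to be particular to the family.

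CDR3 alpha loops of the family were mostly 13 or 14 residues long. The mean was 13.2 residues in p53 KO (SD 1.28 over 20 clonotypes), beside 13.8 for other TRAV (SD 1.27 over 148). In WT it was 13.2 (SD 0.932 over 24), beside 13.6 (SD 1.26 over 187). Loops of 15 or more residues were rare in the family. They were in 1 of 20 p53 KO clonotypes (5.0%, 0.127 to 24.9), beside 47 of 148 of other TRAV (31.8%, 24.4 to 39.9). In WT they were in 2 of 24 (8.33%, 1.03 to 27.0), beside 35 of 187 (18.7%, 13.4 to 25.1). The intervals overlap in both libraries. TRAV14 had 7 of 21 such clonotypes in p53 KO and 1 of 29 in WT, and TRAV3 3 of 20 and 1 of 17. The limit of 15 was set after the lengths were seen. All 15 TRAV7D-2 clonotypes began with CAA, and all 10 TRAV7-3 and TRAV7D-3 clonotypes with CAV. Only TRAV7-6 and TRAV7-1 varied. TRAV7-6 began with CAA and CAD in 1 p53 KO clonotype each and with CAV in its 3 WT clonotypes. The 3 p53 KO clonotypes of TRAV7-1 began with CAG, CAI and CAV. Each remaining gene had 1 start, CAA for TRAV7-4 and TRAV7D-4 and CAV for TRAV7-5, TRAV7N-4 and TRAV7N-6.

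**Figure D4:**
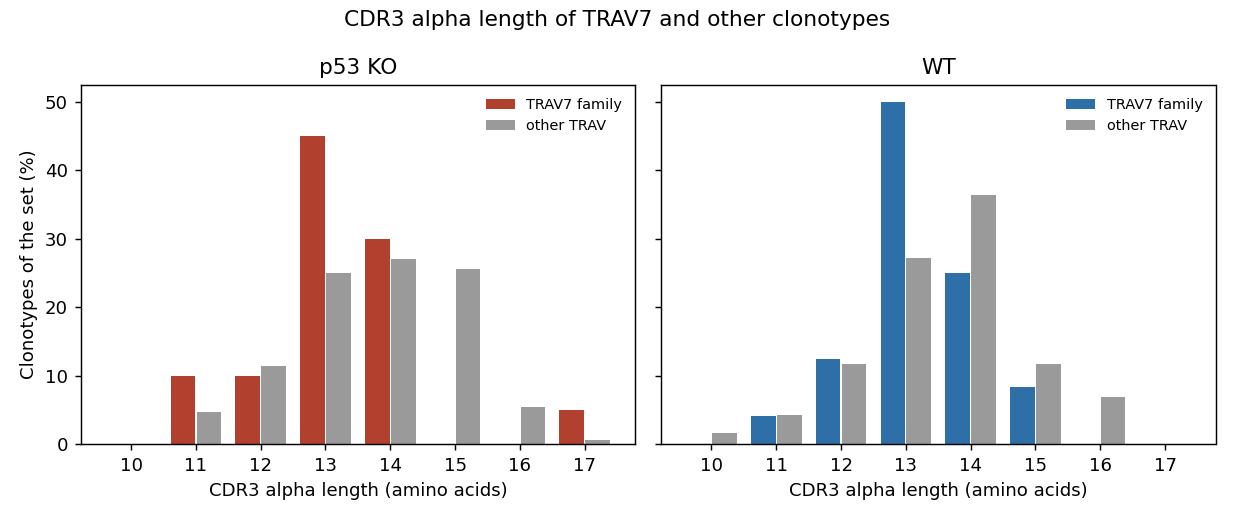
CDR3 alpha length in amino acids against the share of clonotypes (%) of the TRAV7 family (coloured) and of other TRAV genes (grey), in p53 KO (left) and WT (right). In both libraries the family peaks at 13 residues, and loops of 15 or more hold 5.0% and 8.33% of its clonotypes.

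The middle of CDR3 alpha was taken without the first 4 and last 4 residues. The share of clonotypes with any glycine there was lower in the p53 KO family than in other TRAV. Glycine is the smallest residue and makes loops flexible. It was in 8 of 20 family clonotypes in p53 KO (40%, 19.1 to 63.9), beside 111 of 148 of other TRAV (75.0%, 67.2 to 81.7), and these intervals lie apart. In WT it was in 15 of 24 (62.5%, 40.6 to 81.2), beside 137 of 187 (73.3%, 66.3 to 79.5), with overlapping intervals. Counted once per alpha chain sequence the p53 KO shares were 38.9% (17.3 to 64.3) and 73.2% (65.0 to 80.4). Among 10 such contrasts, 5 residue classes in 2 libraries, no other had intervals that lay apart, and glycine was picked after seeing the values. TRAV14 clonotypes had it in 57.1% in p53 KO (34.0 to 78.2) and 75.9% in WT (56.5 to 89.7), and TRAV3 clonotypes in 80% in p53 KO (56.3 to 94.3) and 76.5% in WT (50.1 to 93.2). In p53 KO the interval of the TRAV7 family overlaps those of TRAV14 and TRAV3. The 3 large clones weigh no more than single cells in this count. A shorter loop has fewer residues in its middle, and the count was not adjusted for length. In p53 KO the mean length was 13.2 residues in the family and 13.8 in other TRAV, and its part in the glycine shares was not tested. In p53 KO, 13 of 20 family clonotypes had an aromatic residue (F, W or Y) there (65.0%, 40.8 to 84.6), beside 49.3% of other TRAV. In WT 16 of 24 had one (66.7%, 44.7 to 84.4), beside 47.1%. The intervals overlapped with other TRAV in both libraries. TRAV14 clonotypes had an aromatic residue in 57.1% in p53 KO and 48.3% in WT, and TRAV3 clonotypes in 50% and 64.7%. Asparagine, acidic and basic residues overlapped with other TRAV in both libraries.

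**Figure D5:**
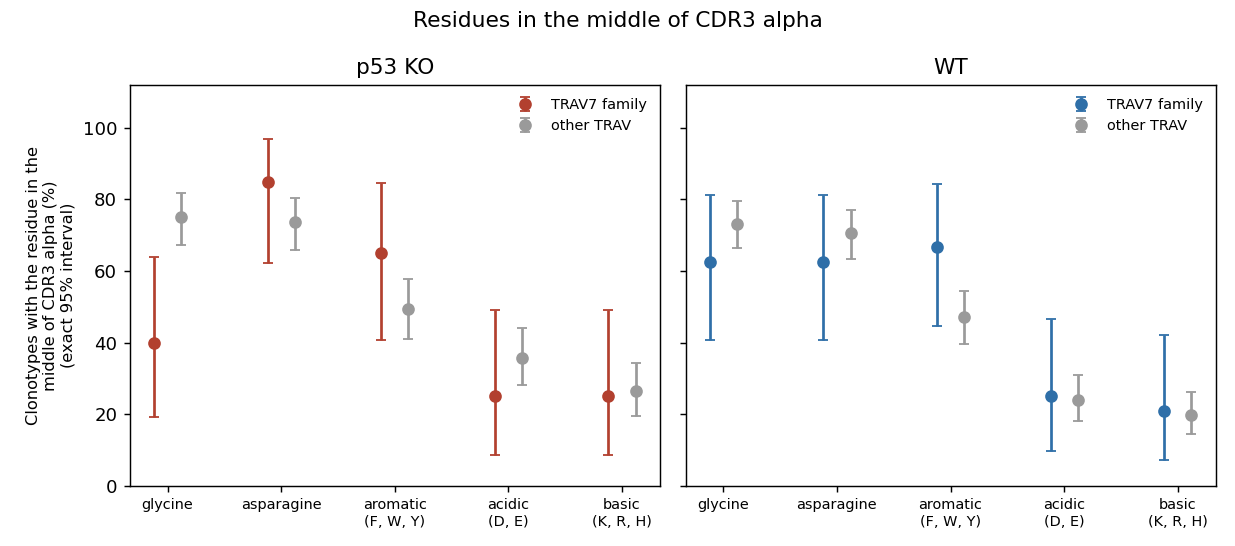
Share of clonotypes (%, exact 95% interval) with a residue of each class in the middle of CDR3 alpha, for the TRAV7 family (coloured) and other TRAV genes (grey), in p53 KO (left) and WT (right). Glycine in p53 KO, at 40% beside 75.0%, is the only class whose intervals lie apart.

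The family joined many J genes. The 20 p53 KO clonotypes used 13 J alpha genes and the 24 WT clonotypes 17. TRAV14 used 16 over 21 p53 KO clonotypes and 22 over 29 WT clonotypes. TRAV3 used 11 over 20 and 11 over 17. TRAJ33 led in p53 KO with 3 clonotypes (15%, 3.21 to 37.9), beside 5 of 148 of other TRAV (3.38%, 1.11 to 7.71), but 2 of the 3 are the clone of 10 and its neighbour. TRAJ21 and TRAJ23 followed with 2 each, tied with TRAJ34, TRAJ37 and TRAJ7. The 2 clonotypes of TRAJ23 carried the same alpha bases, and so did those of TRAJ34 and those of TRAJ37. For TRAJ34 and for TRAJ37, 1 of the 2 was a possible multiplet. In WT TRAJ23 led with 3 (12.5%, 2.66 to 32.4), then TRAJ16 and TRAJ21 with 2, tied with TRAJ22, TRAJ30 and TRAJ47. Both TRAJ16 clonotypes carried the same alpha bases and the same CDR3 beta. J genes numbered 40 or above, which lie nearest to the V genes, were in 2 of 20 p53 KO clonotypes (10.0%, 1.23 to 31.7) and 6 of 24 WT clonotypes (25.0%, 9.77 to 46.7), beside 18.9% and 27.8% of other TRAV. By cells the order turned, to 25.0% in p53 KO against 20% in WT, as the clone of 16 cells carries TRAJ43.

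No single beta gene went with the family. Its clonotypes used 13 TRBV genes in each library, and the 7 clonotypes of 3 or more cells used 7 different ones. TRBV19 led in p53 KO with 3 of 20 clonotypes (15%, 3.21 to 37.9), beside 5.41% of other TRAV (2.36 to 10.4), followed by TRBV10 and TRBV12-2 with 2 each, tied with TRBV26, TRBV29 and TRBV5. Of the 3 TRBV19 clonotypes 1 was a possible multiplet, so this lead rests on that cell. For TRBV12-2 and for TRBV29, 1 of the 2 was also a possible multiplet. In WT TRBV1 led with 4 of 24 (16.7%, 4.74 to 37.4), beside 10.2% (6.23 to 15.4), then TRBV12-2+TRBV13-2, a combined name in the files, and TRBV3 with 3 each. Among the 3 with the combined name, 1 had the same alpha bases and CDR3 beta as a TRBV13-2 clonotype. TRBJ2-1 was in 6 of 20 p53 KO clonotypes (30%, 11.9 to 54.3), beside 11.5% of other TRAV (6.84 to 17.8), and in 4 of 24 WT clonotypes (16.7%, 4.74 to 37.4), beside 9.63% (5.81 to 14.8). Of the 6 in p53 KO, 2 are the clone of 10 and its neighbour, which share 1 beta chain, and 1 other is a possible multiplet. Both p53 KO clonotypes of TRBV5 are that clone and its neighbour. All these intervals overlap.

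Some family alpha sequences were found with more than 1 beta chain. In p53 KO this held for 5 of 24 sequences (20.8%, 7.13 to 42.2), beside 14 of 159 of other TRAV (8.81%, 4.90 to 14.3). In WT it held for 1 of 33 (3.03%, 0.0767 to 15.8), beside 3 of 238 (1.26%, 0.261 to 3.64). A sequence seen in 1 cell cannot show 2 beta chains. Among sequences in 2 or more cells with a beta chain, the counts in p53 KO were 5 of 9 (55.6%, 21.2 to 86.3), beside 14 of 34 of other TRAV (41.2%, 24.6 to 59.3). In WT they were 1 of 6 (16.7%, 0.421 to 64.1), beside 3 of 38 (7.89%, 1.66 to 21.4). The p53 KO sequences were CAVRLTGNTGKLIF of the largest clone, with 1 cell of TRBV20 beside 28 of TRBV1, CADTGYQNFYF (TRAV7-6 and TRAJ49), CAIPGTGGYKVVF (TRAV7-1 and TRAJ12), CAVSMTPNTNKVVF (TRAV7D-3 and TRAJ34) and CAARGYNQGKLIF. The WT sequence was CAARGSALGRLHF, with 4 cells of TRBV17 and 1 of TRBV19. For each but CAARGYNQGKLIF, at least 1 of the cells was a possible multiplet. Left without such cells, 1 of 22 family sequences remained in p53 KO (4.55%, 0.115 to 22.8), beside 10 of 146 of other TRAV (6.85%, 3.33 to 12.2). In WT none of 33 did (0, upper bound 10.6%), beside 1 of 230 (0.435%, 0.0110 to 2.40). The counts over sequences in 2 or more cells and without possible multiplets were added after seeing the data.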

How the data were processed

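The authors deposited 1 filtered contig list per TCR library, with reads and UMIs per contig as whole-number counts that were not normalized, per the file headers. The submitters' processing notes name Cell Ranger 6.1.1 and mm10; no source states the receptor reference. All 709 p53 KO and 733 WT contigs were marked high-confidence, full-length and productive. Groups are the genotypes in the titles.

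The top alpha and beta contig of each cell (most UMIs, then reads) was kept. A clonotype is the deposited identifier, and its chain the one with most UMIs. Barcodes holding at least 2 beta or 3 alpha contigs are possible multiplets (22 p53 KO, 14 WT) and stayed in. No doublet caller was run. V names are the deposited ones, so near-identical copies rest on few bases. Shares of counts have exact 95% intervals, and a count of 0 is given as 3 counts of the total. No test was made with 1 library per genotype. The members and lists were chosen with earlier results of these data known. All family genes were named, with family clonotypes of 3 or more cells, CDR3 alpha and alpha sequences that recurred, the 3 leading J and TRBV genes per library, and the 2 families nearest in clonotype share. Counting was tested on simulated contigs. Tables were made in Python 3.11.15 with pandas 2.3.3, intervals with scipy 1.17.1, and plots with matplotlib 3.10.9. Alternatives were a minimum of 3 UMIs, possible multiplets left out, all cells with an alpha chain, any alpha contig, clonotypes by nucleotides, each alpha sequence once, and cells in place of clonotypes.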

Additional observations from a re-analysis of the deposited data

Results flagged for a closer look

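Cells and contigs outside the paired counts held family chains above the limit of 3 that a count of 0 allows. Family alpha chains had no beta chain in 11 of 87 p53 KO cells (12.6%, exact interval 6.48 to 21.5) and in 14 of 49 WT cells (28.6%, 16.6 to 43.3), beside 30 of 213 (14.1%, 9.71 to 19.5) and 68 of 310 (21.9%, 17.5 to 27.0) for other TRAV genes. In WT, 4 of the 14 carried the same TRAV7D-4 and TRAJ30 chain, which had a beta chain in its other 4 cells.

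A family contig was not the top alpha chain of its cell 7 times in p53 KO and 5 times in WT. In 2 p53 KO and 2 WT of these the top chain was also of the family. One such p53 KO cell joined TRAV7D-2 (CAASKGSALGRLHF, 5 UMIs) with TRAV7-3 (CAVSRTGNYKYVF, 3 UMIs). TRAV7N-4 with TRAJ26 (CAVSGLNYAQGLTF) was second to the same TRAV8D-2 chain (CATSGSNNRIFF) in 2 WT cells.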

How the results depend on the processing

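No paired analysis was possible because each genotype has 1 library, and for the same reason no replicate could be left out. By paired cells the p53 KO share exceeded the WT share in each of 5 alternatives, by 15.4 to 17.8 percentage points, and its mean clone size likewise, by 1.86 to 3.17 cells. None of these alternatives left out the large p53 KO clones for which the family was picked. Both directions therefore follow from that choice and support nothing. By clonotypes the difference of 0.530 points turned without possible multiplets, to 10.6% in p53 KO and 11.8% in WT, and kept its direction under the other 5. Outside clonotypes of 10 or more cells, the p53 KO share was 19.1% against 13.9% in WT with 3 or more UMIs per contig, since clones of 16 and 10 cells then held 7 each and counted as small. With those clones left out as before, which was added after seeing the data, it was 9.40% in p53 KO. J alpha use turned by cells, and CDR3 alpha length without possible multiplets (13.3 residues in p53 KO against 13.2 in WT). The share of clonotypes of 2 or more cells, with the large clones counted, differed by 0.667 to 14.6 points. A share of 25.0% had an interval from 8.66 to 49.1 with the 20 p53 KO family clonotypes, and from 9.77 to 46.7 with the 24 WT ones. Such wide intervals describe 1 share each and set no limit for a difference between the libraries, which was not tested.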

Other observations

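Of the 148 family contigs, all but 2 carried the common V sequence of their gene before CDR3. A p53 KO contig of TRAV7-6 with TRAJ37 (2 UMIs) differed from it at 4 bases and 3 residues. A WT contig of TRAV7D-4 with TRAJ30 (3 UMIs) differed at 1 base and 1 residue.

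The CDR3 beta partnered with the family averaged 14.2 residues in p53 KO (SD 1.53 over 20 clonotypes) and 13.7 in WT (SD 1.43 over 24), beside 14.1 (SD 1.41 over 148) and 13.99 (SD 1.54 over 187) with other TRAV genes. In p53 KO, 17 of 20 family clonotypes used a TRBJ2 gene (85.0%, 62.1 to 96.8). In WT, 18 of 24 did (75.0%, 53.3 to 90.2), beside 66.2% (58.0 to 73.8) and 72.2% (65.2 to 78.5) with other TRAV genes.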
